A study of Homo sapiens with 33 samples.

Results

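Transcripts of 9 genes of the B cell receptor and of the signalling proteins closest to it were followed in Karpas422 cells given EED226. Karpas422 is a human diffuse large B cell lymphoma line, described in the series title as EZH2 mutant, and EED226 is an allosteric inhibitor of PRC2 that binds the EED subunit. The genes were MS4A1, CD79A, CD79B, CD22, LYN, SYK, BTK, BLNK and BANK1, taken as a named list with every probe set that the platform annotation gives to 1 of them. This made 25 of the 54613 probe sets tested and 9 of 19775 genes. The 33 arrays fell into 11 groups of 3, made up of cells at 0 h and of cells kept in the solvent DMSO or in EED226 at 5 µM, harvested after 8 h or on day 1, 2, 3 or 6. All groups were this single line, so they share its EZH2 mutation and its other alleles, and the labels do not say what the cells at 0 h had received. The design text speaks of an EZH2 inhibitor and of biological triplicates, and the protocol also lists the compound EI1. Groups were taken from the sample titles, which name EED226.

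In the B cell receptor, a membrane immunoglobulin that binds antigen is joined to a heterodimer of CD79A and CD79B, whose cytoplasmic tails carry the tyrosine motifs that start the signal. LYN, a SRC family kinase, phosphorylates these motifs, SYK binds them and becomes active, and the adapter BLNK then brings BTK and phospholipase C gamma together. CD22 is a sialic acid binding coreceptor that recruits the phosphatase PTPN6 once LYN has phosphorylated it, and BANK1 is a scaffold that binds LYN and calcium channels. MS4A1 encodes CD20, a surface protein of mature B cells and the target of rituximab. PRC2, the enzyme that EED226 inhibits, places repressive methyl marks on histone H3, and EZH2 is its catalytic subunit.

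Levels are given as deposited, after RMA, on a log2 scale on which 1 unit is a doubling. Array medians lay between 4.06 and 4.18. The lowest correlation between arrays of the same group was 0.986, for DMSO day 6 replicate 3, and 0.994 where that array was not involved. The ACTB gap, the level of the 3' control probe set minus that of the 5' one, reflects RNA integrity on 3' labelled arrays and ran from 2.79 to 4.14 over the arrays. B cell markers were all present, since the 7 measured genes of that list had means above 6 on the log2 scale, whereas 7 of 10 T and NK cell markers, 8 of 9 myeloid markers and 6 of 9 stromal, endothelial or epithelial markers lay below the lowest array median. The exceptions above 6 were CD3D, CD3G, COL1A1 and DCN, with DCN at 12.63 in DMSO and 13.21 in EED226 at day 6. In such bulk samples, fewer cells of a type and less RNA per cell cannot be told apart.

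The members with a RefSeq promoter entry were CD79A, CD22, BLNK, BTK, SYK and BANK1, which is 6 of 9. BTK and BANK1 each have 2 listed starts and SYK has 3, of which at most 1 is shown. Shown here are 5 of these windows, each 300 bases long from 250 before to 50 after a transcript start on GRCh38.p14, because their genes were called at different times: BANK1 and BLNK had risen by day 3, CD22 was called at day 6 alone, SYK was called at day 3 on 1 of its 4 probe sets and at day 6 on all, and CD79A was not called higher. Capitals mark matches, on either strand, to the E2A E-box CAGGTG, to the EBF1 half-site pair CCCNNGGG or to the PU.1 core GAGGAAG.
BANK1, chr4:101790480-101790779, plus strand: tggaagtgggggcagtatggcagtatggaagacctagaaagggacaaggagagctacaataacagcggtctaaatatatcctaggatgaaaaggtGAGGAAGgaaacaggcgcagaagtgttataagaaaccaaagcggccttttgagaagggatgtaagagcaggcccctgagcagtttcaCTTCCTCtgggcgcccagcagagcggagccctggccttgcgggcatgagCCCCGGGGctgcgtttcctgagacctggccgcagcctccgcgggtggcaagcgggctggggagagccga
BLNK, chr10:96271520-96271819, minus strand: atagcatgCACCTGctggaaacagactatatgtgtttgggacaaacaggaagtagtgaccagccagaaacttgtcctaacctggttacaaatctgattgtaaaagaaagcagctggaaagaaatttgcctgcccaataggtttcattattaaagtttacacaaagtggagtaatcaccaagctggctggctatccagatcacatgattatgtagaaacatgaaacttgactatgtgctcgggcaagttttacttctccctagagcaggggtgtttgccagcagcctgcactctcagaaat
SYK, chr9:90801569-90801868, plus strand: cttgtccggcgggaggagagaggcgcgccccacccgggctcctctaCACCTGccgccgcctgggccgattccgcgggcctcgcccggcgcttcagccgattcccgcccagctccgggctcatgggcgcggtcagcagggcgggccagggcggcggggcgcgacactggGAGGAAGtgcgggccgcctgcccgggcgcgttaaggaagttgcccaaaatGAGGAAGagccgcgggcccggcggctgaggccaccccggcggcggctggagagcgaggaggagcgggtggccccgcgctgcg
CD22, chr19:35328937-35329236, plus strand: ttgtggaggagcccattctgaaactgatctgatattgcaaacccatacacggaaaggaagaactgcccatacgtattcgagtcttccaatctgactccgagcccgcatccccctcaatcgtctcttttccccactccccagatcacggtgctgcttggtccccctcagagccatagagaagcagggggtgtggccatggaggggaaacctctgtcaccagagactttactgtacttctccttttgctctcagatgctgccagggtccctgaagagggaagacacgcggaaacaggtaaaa
CD79A, chr19:41877029-41877328, plus strand: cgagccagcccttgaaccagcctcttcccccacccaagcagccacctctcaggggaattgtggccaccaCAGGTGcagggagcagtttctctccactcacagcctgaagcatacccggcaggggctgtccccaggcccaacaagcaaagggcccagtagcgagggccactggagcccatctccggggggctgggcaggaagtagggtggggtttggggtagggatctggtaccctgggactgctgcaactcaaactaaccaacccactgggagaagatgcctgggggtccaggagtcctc

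The windows shown differed in CpG dinucleotides, of which the median promoter of the 35116 listed held 14. The BLNK window held 1, and 3.96% of promoters held fewer. The CD79A window held 4 and the CD22 window 9. The SYK window shown held 40, and 92.4% of promoters held fewer, but the windows of the other listed SYK starts held 19 and 2. The BANK1 window shown, with 13, lay next to the median, and that of its other listed start held 5. The CpG content thus depended on the start chosen. For the motifs, a member counted if any of its listed windows matched, whereas the shares are per single promoter. The E2A E-box matched windows of 3 members (CD79A, BLNK and SYK) and occurred in 20.6% of all promoters. The PU.1 core also matched 3 members (BTK, SYK and BANK1) against 13.6% of promoters, and the EBF1 pair matched BTK and BANK1 against 19.1%. The octamer ATGCAAAT, in 1.77% of promoters, and the interferon element core GAAANNGAA, in 8.11%, were found in 0 of the members' windows. The CD22 window held no match to any of them.

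EED226 was compared with DMSO at each time, which asks when PRC2 inhibition moved the transcripts of the receptor module. The rise was late and broad. At 8 h and at day 1, 0 of the 25 probe sets passed the limma test at an adjusted p under 0.05, and 0 had an unadjusted p under 0.05; among all probe sets 0% and 0.236% passed. At day 2, 4 probe sets had risen, belonging to MS4A1 and BANK1, where 3.58% of all probe sets rose. At day 3, 8 had risen and 0 had fallen, with 7.32% rising among all probe sets; BLNK and a probe set of SYK had joined. At day 6, 21 of 25 had risen and 1, of CD79A, had fallen, where 20.2% of all probe sets rose and 20.6% fell. Among probe sets brighter than the median the share that rose was 32.1%, and 3 of the 25 lay below that median.

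Counted by gene, with each gene read from its brightest probe set, 3 of 9 rose and 0 fell at day 3, against 10.6% and 9.59% of all genes. At day 6, 8 of 9 rose and 0 fell, against 23.1% and 25.5%. The median day 6 difference was 0.83 log2 units for the 9 genes and -0.11 for all genes, and 10 of the 25 probe sets had risen at least 2-fold. Over all times together, 19 of 25 probe sets passed the F test, where 30.6% of all probe sets did. The genes that did not pass it with any probe set were CD79A and BTK.

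**Figure D1:**
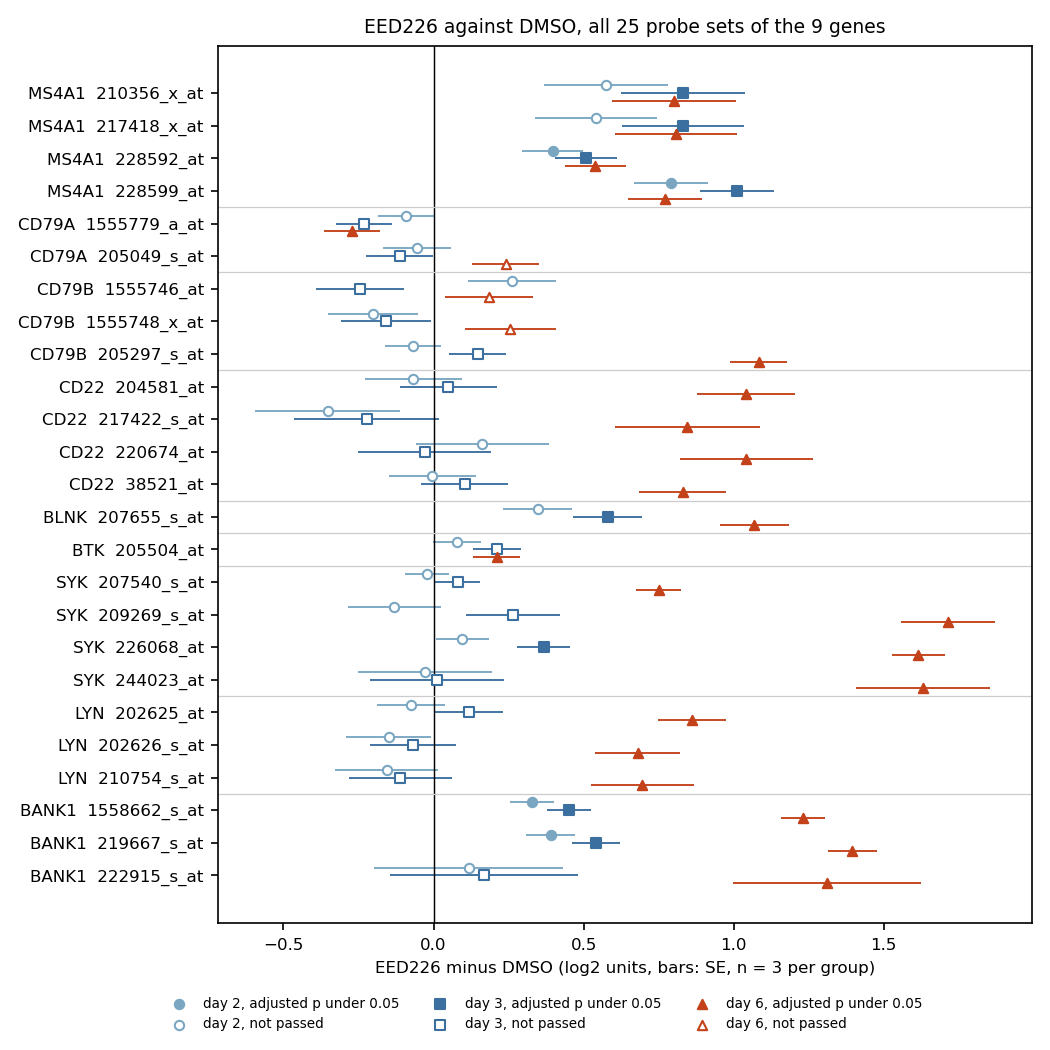
Difference between EED226 and DMSO in log2 units (horizontal axis) for each of the 25 probe sets (vertical axis) at days 2, 3 and 6; bars are the limma SE with 3 arrays per group, and filled symbols passed at an adjusted p under 0.05. MS4A1 is already displaced at day 2, whereas CD79B, CD22, SYK and LYN move mainly at day 6, where 21 probe sets are filled to the right of 0 and 1 of CD79A to the left.

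Measures of sample quality moved with the day 6 groups. The ACTB gap averaged 3.14 in DMSO and 3.91 in EED226 at day 6, against 3.10 and 3.45 at day 3 and 3.18 and 3.26 at day 2; the GAPDH gap at day 6 was 0.26 and 0.64. With the ACTB gap as a covariate, 21 member probe sets rose at day 6 and 0 fell. The gaps of the day 6 arrays did not overlap, at 2.87 to 3.29 in DMSO and 3.50 to 4.14 in EED226. This fit therefore cannot tell the gap and the compound apart at day 6. DMSO day 6 replicate 3, which had the lowest correlation to its group, also had a 75th percentile of 6.10 where the other arrays of its group had 6.53 and 6.55. Without that array 19 probe sets rose and 0 fell, and 7 of 9 genes rose, with a median of 0.69. The 75th percentiles of the EED226 day 6 arrays, at 6.70, 6.74 and 6.68, lay above those of all DMSO day 6 arrays. After renewed quantile normalization 7 of 9 genes rose, with a median of 0.75. The part of this shift in the day 6 rise was not tested.

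SYK, the kinase that docks on the phosphorylated receptor tails, rose at day 6 on all 4 probe sets. Its 3 less bright probe sets had the largest differences of the 25, and the brightest rose less. On 226068_at, DMSO arrays at day 6 read 9.61, 9.71 and 9.38 and EED226 arrays 11.19, 11.33 and 11.03, so the groups were far apart. The difference was 1.61 ± 0.09 (SE, n = 3 per group), a 3.06-fold rise with an adjusted p of 1e-14. At day 3 the same probe set differed by 0.37 ± 0.09 (adjusted p = 0.00371), from 9.60 ± 0.03 to 9.97 ± 0.09 (SD, n = 3), and at day 2 by 0.10, which did not pass. Its 0 h arrays, at 9.37, 9.61 and 9.36, lay in the range of the DMSO arrays.

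The other SYK probe sets were called at day 6 and not before. At day 3 the EED226 arrays of 209269_s_at, at 7.10, 6.88 and 6.84, lay above the DMSO arrays, at 6.75, 6.66 and 6.62, but the difference of 0.26 did not pass (adjusted p = 0.334). On this probe set the EED226 arrays at day 6 read 8.16, 8.14 and 7.96, and the DMSO arrays 6.65, 6.70 and 5.77, the last being replicate 3. The difference of 1.71 ± 0.16 was the largest of the 25, and was 1.41 without replicate 3. On 244023_at the values were 8.42, 8.42 and 7.76 with EED226 and 6.80, 6.99 and 5.92 with DMSO, a difference of 1.63 ± 0.22, or 1.30 without that array, when 219667_s_at of BANK1 (1.37) exceeded it. The brightest probe set, 207540_s_at, rose by 0.75 ± 0.07 (adjusted p = 2e-09), from 10.44 ± 0.11 to 11.19 ± 0.07. All 4 thus agreed in direction while their size ranged from 1.68-fold to 3.28-fold.

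LYN, which phosphorylates both the receptor tails and CD22, was not called through day 3 and rose at day 6 on all 3 probe sets. On 202625_at the DMSO arrays at day 6 read 9.18, 9.20 and 9.22 and the EED226 arrays 9.91, 10.03 and 10.25. The rise of 0.86 ± 0.11 (1.81-fold, adjusted p = 3.51e-07) exceeded the spread of either group, and it was 0.87 without DMSO replicate 3. The other probe sets, 202626_s_at and 210754_s_at, rose by 0.68 ± 0.14 and 0.70 ± 0.17. At days 1 to 3 the 3 probe sets differed from DMSO by between -0.16 and 0.12, and none passed.

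BTK, the TEC family kinase that activates phospholipase C gamma, changed least among the genes that passed. Its single probe set, 205504_at, read 9.77, 9.88 and 9.75 with DMSO and 9.98, 10.07 and 9.97 with EED226 at day 6. The groups did not overlap, but the rise was only 0.21 ± 0.08 (1.16-fold, adjusted p = 0.0344). At day 3 the difference was also 0.21, with overlapping arrays and an adjusted p of 0.0759; without DMSO day 3 replicate 3 it was 0.29 and called (adjusted p = 0.0195). The day 6 call was lost with the ACTB covariate (0.12, adjusted p = 0.417), without any of DMSO replicates 1 and 3 or EED226 replicates 1 and 2 (0.18 to 0.22, adjusted p from 0.0518 to 0.121), with the 6 day 6 arrays alone (adjusted p = 0.18) and after renewed quantile normalization (adjusted p = 0.0603). The F test over all times did not pass for BTK (adjusted p = 0.0718).

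The adapters had passed the test by day 3. BANK1, the scaffold that binds LYN, rose from day 2 on 2 of its 3 probe sets. On 219667_s_at, DMSO arrays read 8.86, 8.98 and 8.84 at day 2 and EED226 arrays 9.14, 9.35 and 9.36, which do not overlap. The difference grew from 0.39 ± 0.08 (adjusted p = 0.00276) at day 2 to 0.54 ± 0.08 (adjusted p = 1.57e-05) at day 3. By day 6 the EED226 arrays read 10.33, 10.48 and 10.35 against 9.03, 9.01 and 8.95, a rise of 1.39 ± 0.08 (2.63-fold, adjusted p = 3.93e-14). In DMSO the group means of this probe set were 8.89 at day 2 and 8.96 at day 3, below the 9.03 of the cells at 0 h.

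BANK1 probe set 1558662_s_at gave the same course, at 0.33, 0.45 and 1.23 for days 2, 3 and 6. The dimmer 222915_s_at did not pass at days 2 and 3 and rose by 1.31 ± 0.31 at day 6, with wide spread: 6.84, 6.68 and 5.68 with DMSO and 8.19, 7.78 and 7.16 with EED226. On this probe set replicate 3 was the lowest array in each of the 11 groups. The day 2 call of 219667_s_at was lost when the 6 day 2 arrays were fitted alone (adjusted p = 0.0587).

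BLNK, the adapter that links SYK to BTK, has 1 probe set, 207655_s_at, and rose from day 3. Its EED226 arrays at day 2 read 9.63, 9.67 and 9.70, all above the DMSO arrays at 9.34, 9.37 and 9.24, with a difference of 0.35 ± 0.11 that did not pass (adjusted p = 0.0889). At day 3 they read 10.02, 10.07 and 10.13 against 9.32, 9.32 and 9.85, where DMSO replicate 3 stood apart from its group. The rise was 0.58 ± 0.11 at day 3 (adjusted p = 0.000541) and 1.07 ± 0.11 at day 6 (2.10-fold, adjusted p = 9.18e-09). At day 6 the arrays read 10.23, 10.41 and 10.33 with EED226 and 9.33, 9.42 and 9.01 with DMSO.

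**Figure D2:**
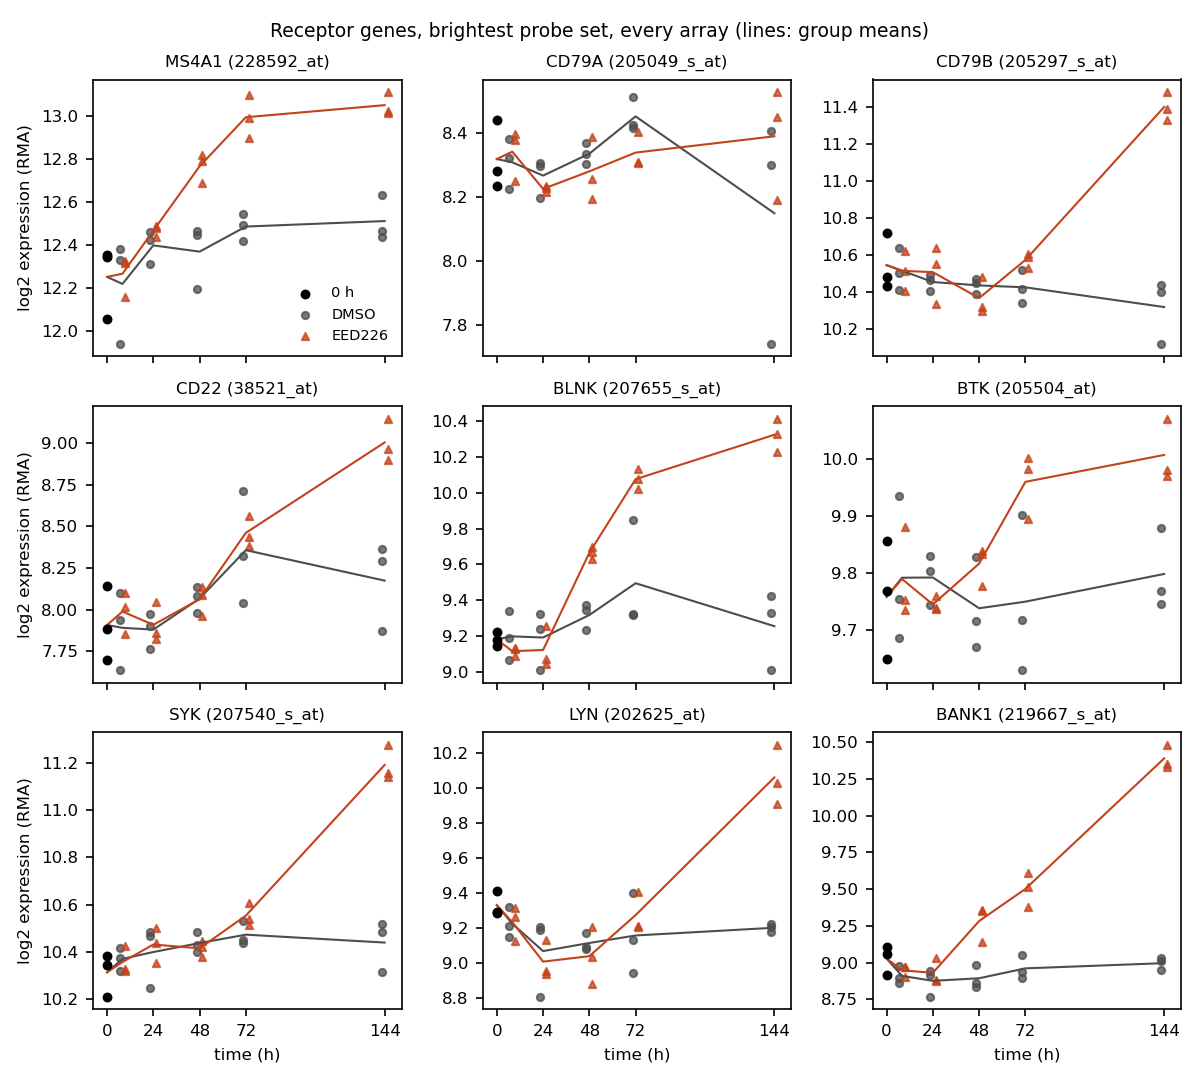
RMA log2 expression (vertical axes, each scaled to its gene) against time in hours (horizontal axes) for the brightest probe set of each of the 9 genes; points are single arrays, lines join group means, and both lines start from the 3 arrays at 0 h. EED226 arrays of MS4A1, BANK1 and BLNK lie above all DMSO arrays from 48 h (day 2) on, and those of CD79B from 72 h (day 3). BLNK did not pass the test at day 2, nor CD79B at day 3. For CD22, SYK, LYN and BTK this holds only at the last time (day 6), where the arrays of CD79A overlap.

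Of the signalling chains of the receptor itself, CD79B, which pairs with CD79A, rose at day 6. On 205297_s_at the arrays at day 6 read 11.39, 11.48 and 11.33 with EED226 and 10.40, 10.43 and 10.12 with DMSO. The rise was 1.08 ± 0.09 (2.12-fold, adjusted p = 1.7e-10), after differences of -0.07 at day 2 and 0.15 at day 3 that did not pass. The other CD79B probe sets, 1555746_at and 1555748_x_at, had means of 3.90 and 3.85, below the lowest array median, and did not pass at any time.

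CD79A was not called higher, and its probe sets took opposite signs at day 6. On the brighter, 205049_s_at, the arrays at day 6 read 8.53, 8.45 and 8.19 with EED226 and 8.41, 8.30 and 7.74 with DMSO, which overlap. The difference of 0.24 ± 0.11 did not pass (adjusted p = 0.0877) and was 0.04 without DMSO replicate 3, the low array, but it was called without DMSO replicate 1 or 2 or EED226 replicate 3 (0.32 to 0.37, adjusted p from 0.0113 to 0.0412). On 1555779_a_at the values were 7.57, 7.46 and 7.33 with EED226 and 7.72, 7.67 and 7.78 with DMSO, a fall of 0.27 on the log2 scale with an SE of 0.09 and an adjusted p of 0.021. That call was lost without DMSO replicate 3 (adjusted p = 0.0721), without EED226 replicate 3 (adjusted p = 0.107) and with the 6 arrays alone (adjusted p = 0.114). With the ACTB covariate the fall was no longer called (-0.09, adjusted p = 0.608) while 205049_s_at was called higher (0.56, adjusted p = 0.00119). The 11 group means of 205049_s_at spanned only 0.30 log2 units, from 8.15 to 8.45.

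MS4A1, the gene of CD20, was called from day 2 on. On its brightest probe set, 228592_at, DMSO arrays at day 2 read 12.45, 12.47 and 12.20 and EED226 arrays 12.79, 12.82 and 12.69. The rise was 0.40 ± 0.10 at day 2 (adjusted p = 0.0184), 0.51 ± 0.10 at day 3 (adjusted p = 0.000627) and 0.54 ± 0.10 at day 6 (adjusted p = 8.03e-05). At day 6 EED226 arrays read 13.11, 13.02 and 13.03 against 12.63, 12.47 and 12.44. The EED226 means of days 3 and 6, 13.00 ± 0.10 and 13.05 ± 0.05, differed by less than the spread of the day 3 arrays.

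The other MS4A1 probe sets likewise reached their day 6 difference by day 3. On 228599_at the differences were 0.79 ± 0.12 at day 2 (adjusted p = 8.35e-05), 1.01 at day 3 and 0.77 at day 6. The probe sets 210356_x_at and 217418_x_at, whose suffix marks probes that can match other transcripts, rose by 0.83 each at day 3 and by 0.80 and 0.81 at day 6. At day 2, where same-numbered arrays deviated together, the replicate block brought both past the test (adjusted p = 0.000971 and 0.00222, against 0.129 and 0.154 without it). The day 2 call of 228592_at was lost without DMSO replicate 3 (0.31, adjusted p = 0.158), without EED226 replicate 1 or 2 (adjusted p = 0.0645 and 0.0927) and with the 6 arrays alone (adjusted p = 0.0662).

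CD22, the inhibitory coreceptor, rose at day 6 on all 4 probe sets and on none before. On 38521_at the arrays at day 6 read 9.15, 8.97 and 8.90 with EED226 and 8.36, 8.29 and 7.87 with DMSO, a rise of 0.83 ± 0.14 (1.78-fold, adjusted p = 2.66e-05). On 204581_at the rise was 1.04 ± 0.16 (adjusted p = 5.71e-06). The dim probe sets 220674_at and 217422_s_at rose by 1.04 ± 0.22 and 0.85 ± 0.24. On 217422_s_at the DMSO arrays read 5.08, 4.82 and 3.63, and without the last, replicate 3, the difference was 0.40 and was not called (adjusted p = 0.113), nor was it with the 6 arrays alone (adjusted p = 0.111) or with array weights (adjusted p = 0.123). At day 3 the 4 CD22 probe sets differed from DMSO by between -0.22 and 0.10.

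Whether the EED226 difference changed between times was tested as a difference of differences. From day 1 to day 3 it grew on 4 of 25 probe sets, where 2.26% of all probe sets were called higher: 228599_at of MS4A1 by 0.80 ± 0.17, BLNK by 0.65 ± 0.16, and 219667_s_at and 1558662_s_at of BANK1 by 0.49 ± 0.11 and 0.38 ± 0.10. From day 3 to day 6 it grew on 15 of 25, where 11.6% of all probe sets were called higher. These were all 4 of CD22, all 4 of SYK, all 3 of LYN, 2 of BANK1, BLNK and 205297_s_at of CD79B, with growth from 0.49 ± 0.16 for BLNK to 1.62 ± 0.32 for 244023_at of SYK. No probe set of MS4A1 was called in this step, with changes from -0.24 to 0.03, and neither was BTK, with a change of 0.00 ± 0.11. These steps share the day 3 arrays.

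Single arrays decided some of these calls. From day 1 to day 3, the call of BLNK was lost without DMSO day 1 replicate 3, DMSO day 3 replicate 1 or 2, EED226 day 1 replicate 1 or 2 or EED226 day 3 replicate 3, at 0.56 to 0.63. That of 1558662_s_at of BANK1 was lost without any DMSO day 1 array, DMSO day 3 replicate 2 or 3, EED226 day 1 replicate 1 or 2 or EED226 day 3 replicate 1 or 2, at 0.34 to 0.40. From day 3 to day 6, BLNK was lost without DMSO day 3 replicate 3, DMSO day 6 replicate 3, EED226 day 3 replicate 1 or 2 or EED226 day 6 replicate 2 or 3, at 0.31 to 0.49. Without DMSO day 6 replicate 3 the calls of 217422_s_at, 220674_at and 38521_at of CD22 (0.63, 0.78 and 0.57) and of 210754_s_at of LYN (0.69) were lost as well. These 4 probe sets also lost the call without DMSO day 3 replicate 1 (217422_s_at and 220674_at) or 3 (217422_s_at and 38521_at), EED226 day 3 replicate 3 (217422_s_at and 210754_s_at), EED226 day 6 replicate 2 (217422_s_at and 220674_at) or EED226 day 6 replicate 1 (210754_s_at). The calls of SYK and CD79B from day 3 to day 6 were kept without any 1 array.

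DMSO arrays were compared with the cells at 0 h to see how the genes moved in culture alone. At 8 h, 0 of the 25 probe sets passed, with 0% of all probe sets, and 0 had an unadjusted p under 0.05. At days 1 and 2, 0 passed, with 0.0916% and 0.419% of all probe sets, and 2 had an unadjusted p under 0.05 at each. At day 3 and at day 6, 1 passed, 228599_at of MS4A1, where 1.18% and 0.423% of all probe sets rose. It read 9.06, 9.01 and 8.66 at 0 h, 9.51, 9.42 and 9.38 in DMSO at day 3 and 9.69, 9.50 and 9.28 at day 6. The rises were 0.53 ± 0.12 (adjusted p = 0.0207) and 0.58 ± 0.12 (adjusted p = 0.0152).

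These culture comparisons share the 0 h arrays, and replicate 3 was the lowest of them on 228599_at; without it neither call remained (0.40, adjusted p = 0.146, and 0.46, adjusted p = 0.107). The calls were also lost with the 6 arrays alone (adjusted p = 0.127 and 0.884), without any 1 of the DMSO day 3 arrays (0.49 to 0.56) and without DMSO day 6 replicate 1 (0.48). CD22 showed higher DMSO means at day 3 on its 4 probe sets, by 0.45 to 0.79, with adjusted p values from 0.106 to 0.134, so none passed. LYN showed lower DMSO means than 0 h at day 1, by -0.32 to -0.26, and none passed.

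Across the 11 group means of the brightest probe sets, CD79A was least like the other members, with Pearson's r between 0.177 and 0.467. The highest r among pairs was 0.945, for CD79B with LYN, followed by 0.941 for MS4A1 with BLNK. The groups share arrays' normalization and an EED226 course of late rises, so these values only describe the courses. Among 2825 genes whose group means spanned at least 1 log2 unit, the 3 most like BANK1 were PLEKHG1 (r = 0.996), LOC101929268 (0.995) and CD40 (0.995). For BLNK they were SP140L (0.993), GAB3 (0.991) and SP140 (0.988). For CD79B they were the light chain variable segment IGLV1-44 (0.991), H1-2 (0.982) and ZMAT3 (0.981), for LYN PEA15 (0.989), SLC30A7 (0.983) and LAPTM5 (0.981), and for CD22 LINC02909 (0.975), CD55 (0.974) and SC5D (0.969).

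The genes around the module were read from lists, each gene by its brightest probe set, and their day 6 counts stand against 23.1% of all genes that rose and 25.5% that fell. Of 10 genes for immunoglobulin chains and their partners, 3 rose and 5 fell at day 6, with a median of -0.39. JCHAIN, which links secreted immunoglobulin polymers, rose by 4.78 ± 0.26, from 6.13 to 10.91. The kappa constant gene IGKC rose by 0.81 ± 0.09 and IGLC1 by 3.18 ± 0.20, but 3 of 7 other probe sets of IGKC and 7 of 8 of IGLC1 had the opposite sign. IGLL1 and VPREB3, of the pre-B cell receptor, fell by 1.42 and 0.77 on the log2 scale, and IGHM and IGHD fell by 0.36 and 0.43, IGHD to 3.77, below the lowest array median of 4.06. Without DMSO day 6 replicate 3, 3 rose and 3 fell.

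Of 28 coreceptor and positive signalling genes, 14 rose and 6 fell at day 6, against 23.1% and 25.5% of all genes, with a median of 0.21. The protein kinase C isoform PRKCB, which relays the signal to NF-kB, rose by 2.65 ± 0.16, the RAS activator RASGRP3 by 2.51 ± 0.25, CD38 by 1.98 ± 0.20 and CD40 by 1.90 ± 0.12. PRKCB and CD38 had already risen at day 2, by 0.82 and 1.26. The falls were led by PRKCD at -1.24 ± 0.15, the calcium sensor STIM1 at -0.60, RASGRP1 at -0.57 and the phosphoinositide kinase subunit PIK3CD at -0.42. For PRKCB 1 of 5 other probe sets, and for RASGRP3 the only other probe set, had the opposite sign.

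The next list held 33 inhibitory receptors, phosphatases and other regulators of receptor signalling, not all of them inhibitory. Of these, 21 rose and 4 fell at day 6, against 23.1% and 25.5% of all genes, with a median of 0.44. With the ACTB covariate 16 rose, with a median of 0.32, and after renewed quantile normalization 18 rose, with a median of 0.29. The inhibitory receptors PECAM1 and FCRL3 rose by 4.15 ± 0.15 and 3.36 ± 0.11, CD72 rose by 3.50 ± 0.18 from 3.70, a level below the lowest array median of 4.06, and SH3BP5, an inhibitor of BTK, rose by 3.21 ± 0.18. PTPN6, the phosphatase recruited by CD22, fell by 1.18 on the log2 scale with an SE of 0.13, from 9.09 to 7.91, and was already lower at day 2, at -0.67 ± 0.13. UBASH3B, which acts on SYK family kinases, fell by 1.39 and CD5 by 0.58, and DOK2 fell by 0.71 to 3.39, below the lowest array median. CD22 and PTPN6 thus moved in opposite directions at day 6.

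Of 24 genes known as targets of receptor signalling, 9 rose and 8 fell at day 6, against 23.1% and 25.5% of all genes, with a median of -0.05. The median was -0.17 with the ACTB covariate and -0.10 after renewed quantile normalization. BCL2A1, a survival gene, rose from 2.55, below the lowest array median of 4.06, to 5.88, the chemokine CCL4 rose by 3.08 ± 0.29, CD83 by 2.23 ± 0.16 and the phosphatase DUSP5 by 2.13 ± 0.22. LTA and TNF fell by 2.82 and 2.70 on the log2 scale, with SEs of 0.18 and 0.15, and IER2 and DUSP2 by 1.26 and 1.14. LTA and TNF were already lower at day 2, at -1.66 and -1.33.

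Of 23 transcription factors and other regulators of B cell genes, 14 rose and 4 fell at day 6, against 23.1% and 25.5% of all genes. The median was 0.25. With the ACTB covariate 12 rose and 4 fell, with a median of 0.42. ID2 and BACH2 rose by 4.82 ± 0.26 and 4.57 ± 0.18, ID3 by 1.92 ± 0.21 and FOXO1 by 1.71 ± 0.09. TCF3, which encodes E2A, fell by 0.38 on the log2 scale, MEF2C by 0.29 and IKZF1 by 0.25. PAX5 differed by 0.11 ± 0.09 and did not pass (adjusted p = 0.326). EBF1, whose motif was marked above, had means of 10.93 with DMSO and 11.13 with EED226. It was called higher, but not without DMSO day 6 replicate 3. Whether any of these factors bears on the members was not tested.

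Of 19 measured paralogs of the kinases, adapters and MS4A1, 3 rose and 1 fell at day 6, against 23.1% and 25.5% of all genes, with a median of -0.10, near that of all genes. At 0 h TXK, FRK, YES1, MS4A3, CLNK, MAG and MS4A6A had means from 2.19 to 3.98, below the lowest array median of 4.06. LCP2 and ZAP70, at 4.07 and 4.15, lay just above it. The few calls and the median of this list therefore say little about such genes. With the ACTB covariate 3 rose and 7 fell, with a median of -0.16, and 3 rose and 3 fell after centring the array medians. MS4A7 rose by 1.92 ± 0.24 and SRC by 0.44 ± 0.11, though all 6 other probe sets of SRC had the opposite sign. FRK was called higher, but both groups lay below the lowest array median of 4.06. TEC, a relative of BTK, fell from 4.44 to 3.93, also below that median.

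**Figure D3:**
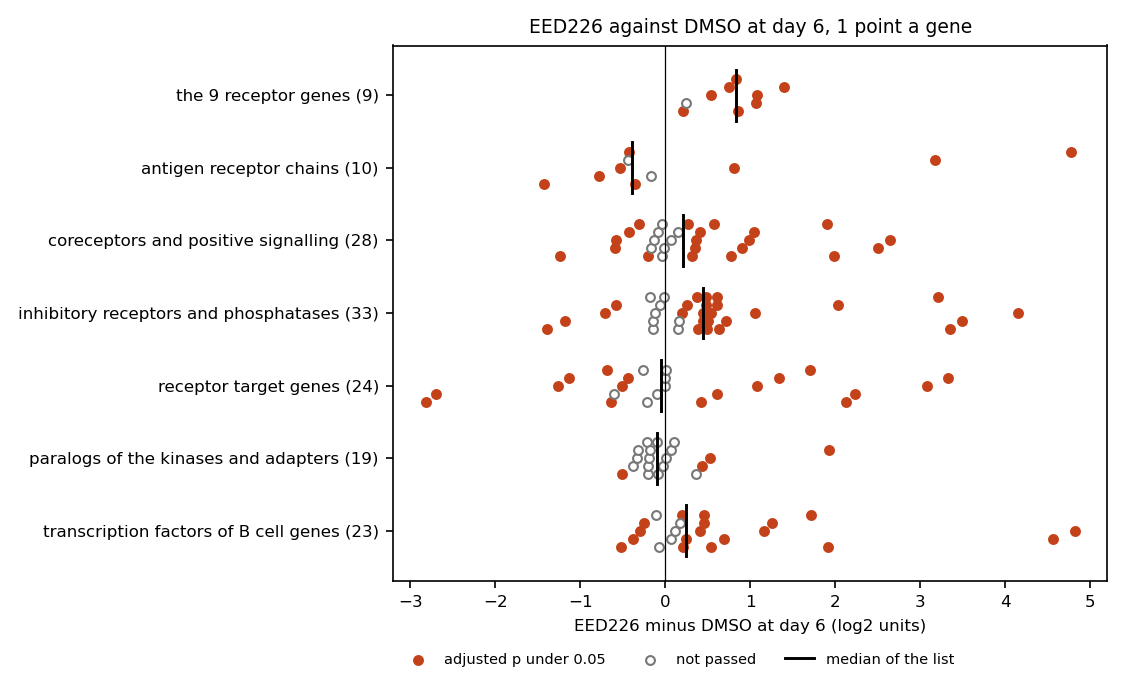
Difference between EED226 and DMSO at day 6 in log2 units (horizontal axis), 1 point per gene read from its brightest probe set, for the 9 receptor genes and 6 gene lists (vertical axis, with the number of genes measured); filled points passed at an adjusted p under 0.05 and bars mark medians. The receptor genes lie to the right of 0 with a median of 0.83, while the target genes spread both ways around -0.05.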

How the data were processed

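The authors deposited log2 expression values, 1 per probe set and array, which, per the submitters' processing notes, RMA produced; its version is not given in the sources analysed. RMA normalizes arrays by quantiles and summarizes probes. RNA was labelled with a 3' kit, per the labels' protocols. Of 54675 probe sets, 62 controls were left out; 41091 had 1 symbol, 1801 several and 11721 were not named here. Depth has no meaning for arrays, whose number limits the precision.

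limma 3.58.1 in R 4.3.3 (lmFit, eBayes) fitted 1 mean per group over 33 arrays, with 22 residual degrees of freedom. Two-sided p-values were adjusted by Benjamini-Hochberg over 54613 probe sets, with no filter, and passed at an adjusted p under 0.05. Values with ± are SEs for differences and SDs for levels. Members and lists were chosen with earlier results of these data known, so no list supports another. Lists name up to 4 genes per direction at day 6 that passed without overlap of arrays. Likeness names 3 genes per member whose group means span at least 1 log2 unit. PAX5 and EBF1 were named after their values were seen. The fit was tested on simulated data. Nothing says the replicates came from separate cultures beyond the words of the design text, and p-values measure the spread between these arrays.

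To check for pairing, deviations from group means were correlated between EED226 and DMSO arrays of the same number. All 3 correlations were over 0.1 on day 2 (0.141 to 0.194), on day 1 (0.175 to 0.373) and at 8 h (0.167 to 0.332), but not on day 3 (0.0126 to 0.264) or day 6 (0.0683 to 0.165). Between arrays of different number they ran from -0.327 to 0.0767 at 8 h, from -0.265 to 0.0142 on day 1 and from -0.14 to 0.00163 on day 2. On day 3 they ran from -0.214 to 0.121 and on day 6 from -0.19 to 0.021. The same-number values thus all lay above the others at each time but day 3. The main fit did not model pairing. The numbers come from the titles, which state no shared day. Alternatives were the arrays of a comparison alone, a replicate block, centred medians, renewed quantile normalization, brighter probe sets, trended and robust eBayes, array weights, the ACTB covariate, each array left out, and other ways of reading a gene. Promoters came from a RefSeq table on GRCh38.p14; sequences of chromosome 8 were left out. Some listed genes were not analysed here.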

Additional observations from a re-analysis of the deposited data

Results flagged for a closer look

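The results here were singled out because the EED226 difference itself differed between times, by the difference of differences in limma. From day 1 to day 3 the change was 0.80 for MS4A1 228599_at (adjusted p = 0.00594), 0.65 for BLNK 207655_s_at (adjusted p = 0.019), 0.49 for BANK1 219667_s_at (adjusted p = 0.0121) and 0.38 for BANK1 1558662_s_at (adjusted p = 0.0347). In each, the EED226 arrays were all above the DMSO arrays at day 3.

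From day 3 to day 6 the changes for SYK were 0.67 on 207540_s_at, 1.45 on 209269_s_at, 1.25 on 226068_at and 1.62 on 244023_at, with adjusted p values from 4.6e-08 to 0.000483. For LYN they were 0.74 on 202625_at, 0.75 on 202626_s_at and 0.81 on 210754_s_at, with adjusted p values from 0.00133 to 0.0206. CD22 changed by 0.99 on 204581_at, 1.07 on 217422_s_at, 1.07 on 220674_at and 0.73 on 38521_at, with adjusted p values from 0.00274 to 0.0284. CD79B changed by 0.93 on 205297_s_at (adjusted p = 1.03e-05). Of the adapters, BLNK changed by 0.49 on 207655_s_at (adjusted p = 0.0362), and BANK1 by 0.78 on 1558662_s_at and 0.85 on 219667_s_at (adjusted p = 3.23e-06 and 3.91e-06). Without DMSO day 6 replicate 3 the calls of BLNK (0.37), of CD22 217422_s_at (0.63), 220674_at (0.78) and 38521_at (0.57) and of LYN 210754_s_at (0.69) were lost, with adjusted p values from 0.0518 to 0.131.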

How the results depend on the processing

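For single member probe sets, 4353 values under an alternative stayed on the same side of the threshold. Another 74 kept direction and lost the call, 37 gained a call and 0 reversed. A reversal was counted only where at least 1 of the fits compared made a call, so uncalled values may have changed sign. Member probe sets called stayed at 0 at 8 h and day 1, and ran from 3 to 6 at day 2, 8 to 9 at day 3 and 19 to 22 at day 6; with single arrays left out the ranges were 3 to 4, 8 to 9 and 19 to 23. From day 3 to day 6 the count ran from 10 to 17 around 15, and over all times from 15 to 21 around 19. The 4 calls from day 1 to day 3 became 2 with the arrays of the comparison alone, 7 with the replicate block and 7 with the ACTB covariate, and 2 to 4 with single arrays left out. The lower counts of 2 came without DMSO day 1 replicate 3, DMSO day 3 replicate 2 or EED226 day 1 replicate 1 or 2. The 1 call of DMSO against 0 h at day 3 became 0 with those arrays alone, 2 with the replicate block and 3 with array weights; that at day 6 became 0 and, with array weights, 2; both ran from 0 to 1 with single arrays left out. When probe sets were averaged per gene, genes called fell from 2 to 1 at day 2 and from 2 to 1 for the change from day 1 to day 3. Under each of the other ways of reading a gene, 4 genes instead of 3 were called at day 3. Over all times 8 instead of 7 passed the F test under each of these. Beside the values given with the results, the replicate block also called 222915_s_at of BANK1 from day 3 to day 6 (adjusted p = 0.000192) and 204581_at of CD22 in DMSO at day 3 (adjusted p = 0.0452), and from day 1 to day 3 the other 3 probe sets of MS4A1 (adjusted p from 0.0143 to 0.0166). At 8 h and at days 1, 2 and 6 every same-number correlation exceeded those between different numbers, while at day 3 that of replicate 2 (0.0126) did not. Same-numbered arrays thus tended to deviate together, which the main fit did not model. The titles state no shared day, so what these arrays shared was not settled.

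Over all probe sets, calls at day 1 were 129, but 67 with those arrays alone, 264 with the block and 322 with array weights. A fit of only the 27306 probe sets above the median level called 197 at day 1. At day 2 the calls over all probe sets were 2494, and 4702 with array weights. At day 6 they were 22268, and 13590 with those arrays alone. The share of day 2 calls that were higher was 78.3%, and 65.9% after renewed quantile normalization. The cause of these differences was not tested. With 3 arrays per group, small differences such as that of BTK could not be called stably, and probe sets below the lowest array median say little about their genes.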

Other observations

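Some markers of other cell types changed at day 6 in this B cell line. LYZ, a lysozyme of myeloid cells, rose from 3.22, below the lowest array median of 4.06, to 5.50, while 4 of the 9 myeloid markers fell; 8 of the 9 had means below that median. Among all genes at day 6, 23.1% rose and 25.5% fell. Of the 10 T and NK cell markers, CD3D and CD3G had means above 6; CD3D fell by 0.95 on the log2 scale, from 9.04 to 8.09. Of the 8 plasma cell markers 3 rose and 2 fell, with a median difference of -0.06. JCHAIN rose by 4.78 and SDC1, the plasma cell surface protein CD138, fell by 1.71. The higher mean level of this list given below is thus not a rise of most of its genes. DCN, the stromal proteoglycan decorin, was well above the array medians and rose by 0.58 ± 0.06, from 12.63 to 13.21, though 1 of its 6 further probe sets went the other way, and COL1A1 fell by 0.80 on the log2 scale, from 6.56 to 5.76. The B cell list, which holds 4 of the receptor genes, had a mean level of 10.45 in DMSO and 10.77 in EED226 at day 6, the plasma cell list 5.98 and 6.44, the T and NK cell list 4.55 and 4.32, the myeloid list 3.49 and 3.45 and the stromal list 4.72 and 4.58. The part of these shifts in the results on the receptor genes was not tested.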
